A study of Mus musculus with 22 samples.

Results

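CD4+ T cells that carried a FOXP3 vector were compared with CD4+ T cells that carried the empty LNGFR vector, after both had spent weeks in scurfy mice. The members were taken by title: of the 22 libraries of the series, 10 were titled for the FOXP3 vector and 6 for the LNGFR vector alone. Each title ends in a code and a library number, and the 2 libraries that share a code were summed, which left 5 FOXP3 codes (F1, F2, F5, N2 and N3) and 3 LNGFR codes (G1, G2 and G3) of 11 codes in all. Whether each code stands for a mouse of its own is not in the labels. The p-values therefore measure the spread among codes, which may be partly technical.

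All 16 libraries share the C57BL/6 strain label, the lymph node label and the genotype label Scurfy - FOXP3 KO. In both groups the donor cells came from lymph nodes of scurfy mice aged 10 days and received either human FOXP3 together with the LNGFR marker or LNGFR alone. The recipients were scurfy mice as well, given cyclophosphamide at 50 mg/kg at the age of 10 days, the cells on day 14, and human IL-2 (1000 IU per g of body weight) once a day for 5 days, followed by weekly doses. The recipients of the control cells thus received the IL-2 and the cyclophosphamide too, the latter before the cells. On day 50, 1000 LNGFR+ CD4+ cells per library were sorted in 2 rounds and their polyadenylated RNA was sequenced by Smart-seq.

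FOXP3 is the transcription factor that defines regulatory T cells, a CD4+ lineage that restrains other T cells. Scurfy mice carry a frameshift in Foxp3, lack working regulatory T cells and die of a disease driven by CD4+ effector cells, with strong type 2 cytokine production. In regulatory T cells FOXP3 acts mainly with partner factors: many effector genes such as cytokines are kept low, while receptors for IL-2 and costimulation are kept high. LNGFR is the low-affinity nerve growth factor receptor, used here as a surface tag for sorting.

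Code totals ran from 3109515 (G1) to 10376164 counts (F2), and library totals from 332570 to 5453375 counts. The smallest library was the second of G1: its correlation with the first G1 library was 0.464 across genes, against at least 0.956 for the other 7 pairs, and the repeat-derived Gm10800 family took 29.1% of its counts, against 2.20% to 4.36% in the other libraries. Code G1 as a whole also stood apart, with the Y-linked gene Ddx3y at 16.6 CPM against 48.9 to 86.9 CPM in the other 7 codes. CPM are reads per 1000000 counts, scaled by the trimmed mean of M values (TMM). Code N3 held B cell RNA: 12 B cell markers summed to 6281 CPM, whereas the remaining FOXP3 codes ranged from 167 to 699 CPM and the LNGFR codes from 639 to 1841 CPM, G1 being the highest. Class II antigen presentation genes summed to 20811 CPM in N3 and 10242 CPM in G1, against 1234 to 2464 CPM in the other 6 codes. The part of these cells in each result was not tested, and in bulk samples fewer cells of a type cannot be told apart from less RNA per cell.

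**Figure D1:**
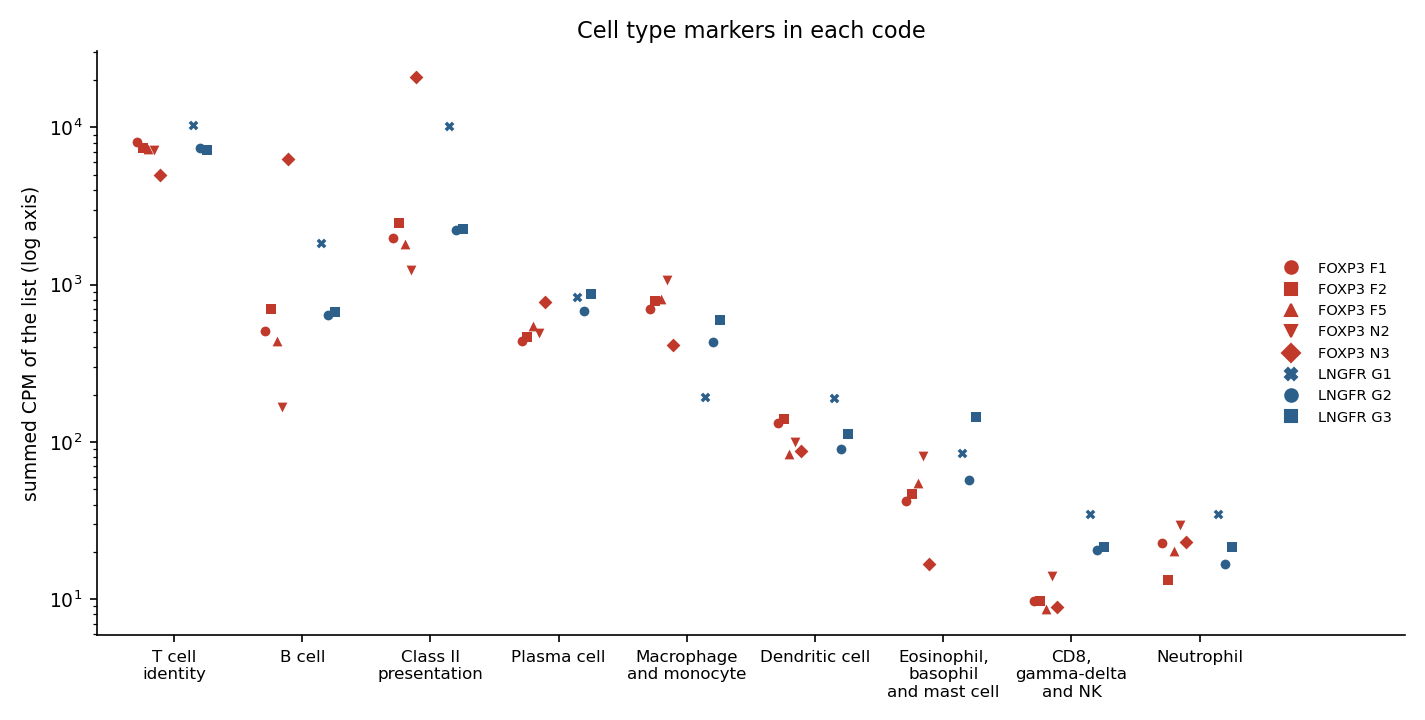
Summed CPM of 9 marker lists on a log axis, 1 point per code, with FOXP3 codes in red and LNGFR codes in blue. N3 is highest for B cell (6281 CPM) and class II genes (20811 CPM) and lowest for T cell identity (4948 CPM), and G1 is the second highest for B cell and class II genes.

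T cell identity genes, such as the CD3 chains, were lowest in N3, with a sum of 4948 CPM. The remaining FOXP3 codes ranged from 7143 to 8075 CPM and the LNGFR codes from 7224 to 10323 CPM. Macrophage and monocyte genes summed to 412 to 1071 CPM with the FOXP3 vector and 193 to 598 CPM with LNGFR, and most of that sum was Ccr2, a receptor that effector T cells also carry. Of the 16 markers on that list, Cd68 reached 11.3 CPM (G1), Lyz2 10.1 CPM (N2), Tyrobp 9.14 CPM (N3), Adgre1 3.89 CPM (G1) and Cd14 1.06 CPM (G1). Itgam was called higher with the FOXP3 vector without the second G1 library and N3. Neutrophil genes summed to at most 35.0 CPM, and CD8, gamma-delta and NK genes to 8.69 to 14.0 CPM against 20.6 to 35.0 CPM. The correlation of log2 CPM was taken across genes, which are not independent replicates. It ran from 0.917 to 0.976 between FOXP3 codes, 0.849 to 0.965 between LNGFR codes and 0.828 to 0.948 between groups. G1 correlated with G2 and G3 at 0.853 and 0.849. Without G1 and N3 the range was 0.965 to 0.976 between FOXP3 codes and 0.936 to 0.948 between groups, and G2 and G3 correlated at 0.965.

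Foxp3 itself (ENSMUSG00000039521.13, GRCm38 chrX:7573644-7595245, plus strand) was read from the mouse gene in both groups. Values by code are in CPM scaled by TMM, and are given from here on in the order F1, F2, F5, N2 and N3, then G1, G2 and G3. Each difference is a log2 fold change, FOXP3 minus LNGFR vector, with its standard error (SE) and the Benjamini-Hochberg adjusted p of edgeR's quasi-likelihood test. It stood at 223, 319.5, 222, 238 and 167 CPM with the FOXP3 vector and at 46.2, 74.7 and 146 CPM with the LNGFR vector. The groups did not overlap, but the log2 fold change of 1.39 (SE 0.38) had an adjusted p of 0.117. The adjusted p was 0.0274 without G1 and N3, and 0.0746 without the second G1 library and N3. The vector carries the human gene, which was not analysed here, and whether its reads align to the mouse gene was not tested, so this row is no direct check of the vector.

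Across all expressed genes, 14283 passed the filter on low counts and were tested with edgeR's quasi-likelihood test. At an adjusted p under 0.05, 49 genes (0.343%) were higher with the FOXP3 vector and 135 (0.945%) were lower, and 1912 genes had an unadjusted p under 0.05. The 5 FOXP3 codes lay wholly above the 3 LNGFR codes in 642 genes (4.49%) and wholly below them in 711 genes (4.98%). The median log2 fold change over all genes was -0.0015, with quartiles of -0.40 and 0.34, and 12467 genes lay within a 1-unit change, none of which was called. The 2 directions differed in level and size. Of the 135 lower genes, 78 were in the lowest 1 of 3 equal bins by expression and 64 had a log2 fold change past 3 in size, whereas 28 of the 49 higher genes were in the middle bin and 4 passed 3. In 5 of the lower genes the FOXP3 codes held no read at all.

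The number of calls depended on which codes were kept. Without the second G1 library and N3, 230 genes were higher (1.69%) and 179 lower (1.32%). Without codes G1 and N3, which leaves 4 codes against 2, 889 were higher (6.24%) and 559 lower (3.92%), and 181 of the 184 main calls were kept. Leaving out single codes gave between 9 higher and 44 lower genes (without G3) and 238 higher and 219 lower genes (without N3), while leaving out G2 gave 9 and 61. In all 184 genes called over the 8 codes the groups did not overlap, so leaving out whole codes could hardly change a direction. None changed direction in those of these fits in which it was tested, which is therefore no separate support. Of the 184, 179 were tested without the second G1 library and N3. The common biological coefficient of variation over the 8 codes was 0.395.

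**Figure D2:**
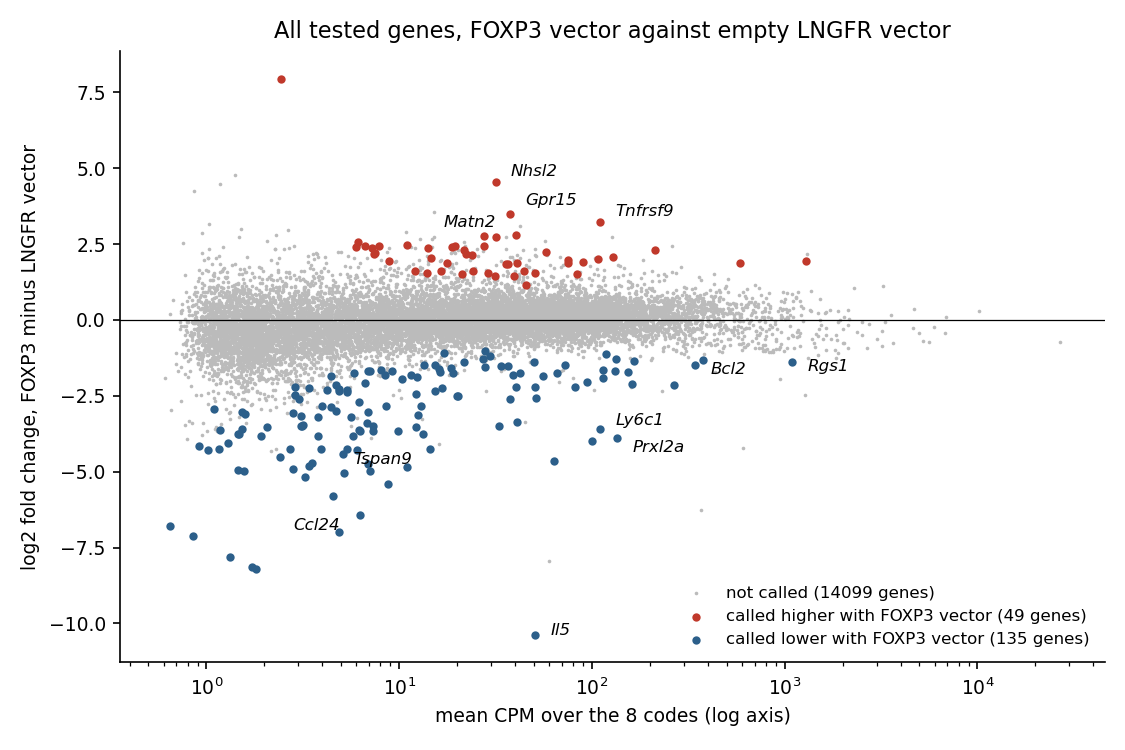
Log2 fold change (FOXP3 minus LNGFR vector) against mean CPM over the 8 codes on a log axis, 1 point per tested gene, with the 49 genes called higher in red and the 135 called lower in blue. Il5 lies lowest at -10.37, and the genes called lower reach further from 0 and to lower expression than those called higher.

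Type 2 and other effector cytokines were lower with the FOXP3 vector. Of 17 tested secreted cytokines, 5 fell (Il5, Il13, Il21, Il4 and Areg) and none rose, with a list median of -0.68. Over all genes, 0.945% were called lower and 0.343% higher, and these shares apply beside every list count below that comes from all codes. At so low a share, the absence of higher calls in a list this small says little about direction. Beside list counts without G1 and N3, the shares of all genes are 3.92% lower and 6.24% higher. Beside list counts without the second G1 library and N3, they are 1.32% lower and 1.69% higher. Il5, the growth factor of eosinophils, was close to silent. It stood at 0.240, 0, 0, 0.213 and 0 CPM in the FOXP3 codes and 49.8, 181 and 176 CPM in the LNGFR codes, which is 4 reads in 5 codes against 2671 reads in 3. The fitted log2 fold change was -10.37 (SE 0.69, adjusted p = 0.000136), and at so few reads its size depends on the fit's prior count.

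Il13, which drives mucus and tissue responses in type 2 inflammation, showed the same contrast at a lower level. It was at 0 to 0.553 CPM in the FOXP3 codes and 14.9, 6.58 and 13.9 CPM in the LNGFR codes (-5.80, SE 0.73, adjusted p = 0.00463). Il4, the defining type 2 helper cytokine, remained well expressed: 46.0, 30.0, 28.5, 23.9 and 46.0 CPM against 128, 95.4 and 130.4 CPM (-1.76, SE 0.27, adjusted p = 0.011). The 3 genes lie in 1 cluster on chromosome 11 (GRCm38), Il4 at chr11:53602982-53618669, Il13 at chr11:53631324-53634702 and Il5 at chr11:53720794-53725106, and the drop ran from modest at Il4 to near complete at Il5. Gata3, the transcription factor that drives this cluster in type 2 helper cells, was at 707 to 1205 CPM with the FOXP3 vector and at 589, 1025 and 1367 CPM with LNGFR. Its difference of 0.03 had a 95% interval of -0.65 to 0.70, which leaves room for a change of that size in either direction. Gata3 was singled out after its values were seen.

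Il21, a cytokine of follicular helper cells that acts on B cells, fell from 16.4, 18.3 and 17.3 CPM to 0.111 to 1.68 CPM (-4.74, SE 0.66, adjusted p = 0.0072). Areg, an epidermal growth factor family ligand made by tissue regulatory T cells as well as type 2 cells, was also lower, at 18.7 to 73.8 CPM against 261, 109 and 169 CPM (-2.04, SE 0.41, adjusted p = 0.038). Areg did not pass without G1 and N3 (-1.68, adjusted p = 0.115) or without the second G1 library and N3 (adjusted p = 0.0512). Of 8 tested chemokine ligands 3 fell and none rose. These were Ccl24, an eosinophil attractant, and Cxcl3 and Cxcl2, both neutrophil attractants. Ccl24 was at 0 to 0.448 CPM against 26.6, 5.59 and 17.1 CPM (-6.41, SE 0.69, adjusted p = 0.00195). Cxcl2 was at 1.62 to 12.4 CPM against 118, 61.5 and 49.4 CPM (-3.48, SE 0.50, adjusted p = 0.00864), and Cxcl3 was at most 0.853 CPM against 5.10 to 23.3 CPM (-5.06, adjusted p = 0.0072). In these 3 chemokine genes each LNGFR code was above each FOXP3 code, as in all 135 genes called lower. The markers of eosinophils, basophils and mast cells summed to 16.7 to 81.6 CPM with the FOXP3 vector and 57.5 to 144 CPM with LNGFR, and the 3 of these 12 markers that passed the filter, Hdc, Kit and Ccr3, were all below 0 with a median of -1.21. Ccr3 made up most of the sum, at 7.25 to 75.7 CPM against 44.2, 43.1 and 122 CPM. Hdc was at 1.56 to 5.94 CPM against 22.7, 5.41 and 13.7 CPM, and Epx was at 2.83 CPM in G1 and at most 0.334 CPM elsewhere. The part of such cells in the cytokine and chemokine results was not tested.

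Among ligands of the TNF superfamily, through which helper T cells act on B cells and antigen-presenting cells, 2 of 12 tested fell and none rose. Tnfsf8 (CD30 ligand) was at 68.9, 74.8, 67.0, 53.6 and 91.6 CPM against 292, 351 and 286 CPM (-2.12, SE 0.23, adjusted p = 0.00206). Cd40lg, the helper signal for B cells, was at 25.6 to 40.3 CPM against 61.8, 84.2 and 96.7 CPM (-1.37, SE 0.23, adjusted p = 0.0187). Both are among the genes known to be lower in natural regulatory T cells than in other CD4+ cells. Of the 12 tested members of that list, 5 fell (these 2, Il4, Igfbp4 and Tcf7) and none rose, with a median of -1.48 against -0.0015 over all genes.

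Few lineage transcription factors were called, and the median of their list was 0.04. Of 46 tested lineage factors 5 fell and none rose: Pparg, Tox2, Eomes, Id2 and Tcf7. Over all genes, 0.945% were called lower and 0.343% higher. Pparg, a lipid-sensing nuclear receptor found in type 2 helper and tissue T cells, was at 2.64, 2.09, 4.75, 2.13 and 0.224 CPM against 23.6, 23.4 and 48.2 CPM (-3.74, SE 0.57, adjusted p = 0.01). Id2, an inhibitor of E proteins that favours effector fates, was held within a tight range of 223 to 248 CPM in the FOXP3 codes, against 815, 423 and 577 CPM (-1.33, SE 0.25, adjusted p = 0.0276). Tcf7 (TCF-1), a factor of naive and memory cells, was at 55.3 to 117 CPM against 120.1, 395 and 307 CPM (-1.73, SE 0.37, adjusted p = 0.0483), so its groups came within a few CPM of each other through G1. Tox2 and Eomes fell by 1.74 and 3.49 on the log2 scale. Tox2 belongs with Il21 and Il4 to a list of follicular helper genes, of which 4 of 11 tested fell, Sostdc1 being the other, and none rose, and Eomes belongs with Ctsw to a cytotoxic list of which 2 of 13 fell. Ctsw, a lysosomal protease of cytotoxic lymphocytes, was at 25.7 to 57.2 CPM against 122 to 234 CPM (-2.20, SE 0.33, adjusted p = 0.00931). Markers of CD8, gamma-delta and NK cells, which hold Eomes too, were also lower in the FOXP3 codes as a sum, as given above.

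The lineage factors ranged up to 1.45 for Ikzf2, and 3 of the 46 had an interval wholly inside a 1.5-fold change. In the fit without G1 and N3, 6 of the 46 rose and 9 fell. In the fit without the second G1 library and N3, 4 rose and 7 fell. Nfatc1, activated by T cell receptor signals, was at 222 to 258 CPM against 229.9, 262 and 247 CPM, with a 95% interval of the log2 fold change of -0.49 to 0.42. Prdm1, which encodes BLIMP1, was at 85.9 to 126 CPM against 88.2 to 97.9 CPM, with an interval of -0.40 to 0.57. These 2 of the 3 narrow factors were chosen after their values were seen. Over all genes, 651 (4.56%) had such a narrow interval, of which 1 was in the lowest 1 of 3 equal bins by expression, 257 in the middle bin and 393 in the highest. Without codes G1 and N3 the number was 3456, and without the second G1 library and N3 it was 354, so how many genes can be called nearly unchanged rests on the codes kept.

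**Figure D3:**
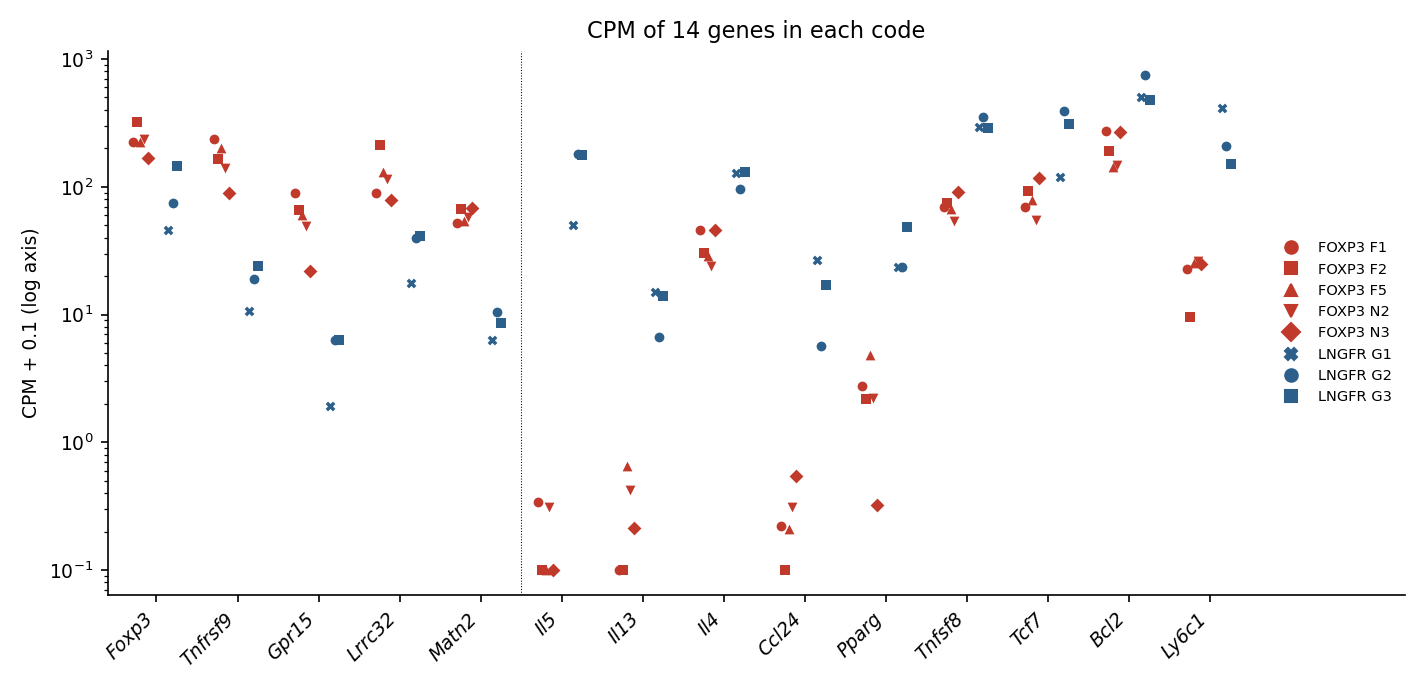
CPM + 0.1 on a log axis for 14 genes, 1 point per code, with FOXP3 codes in red and LNGFR codes in blue. The 5 genes left of the dotted line lie higher with the FOXP3 vector and the 9 right of it lower, and no gene's groups overlap, although Foxp3 itself did not pass the test.

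Genes that natural regulatory T cells express at high level moved up in part. Of 34 tested, 5 rose (Tnfrsf9, Gpr15, Dusp4, Gpr83 and Lrrc32) and 1 fell (Ecm1), 27 had a fold change above 0, and the median was 0.74. Tnfrsf9 (4-1BB), a costimulatory receptor of activated T cells and regulatory T cells (GRCm38 chr4:150914562-150946102), stood at 237, 165, 199.6, 140.1 and 89.9 CPM against 10.6, 18.8 and 23.7 CPM. Its log2 fold change was 3.21 (SE 0.40, adjusted p = 0.00463). Lrrc32 encodes GARP, which presents latent TGF-beta on regulatory T cells. It was at 89.1, 213, 130.1, 115 and 78.4 CPM against 17.5, 39.8 and 40.9 CPM (1.92, SE 0.41, adjusted p = 0.0482). Gpr83, a receptor long used as a regulatory T cell marker, was at 30.7 to 80.0 CPM against 11.8 to 14.9 CPM (1.86, SE 0.34, adjusted p = 0.0256). The exception, Ecm1, is an extracellular matrix protein that promotes the exit of type 2 helper cells from lymph nodes. It was at 60.5 to 96.8 CPM against 154, 217 and 267 CPM (-1.30, SE 0.25, adjusted p = 0.0338).

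Several well-known genes of this list lay higher in each FOXP3 code than in each LNGFR code yet missed the threshold. Ikzf2 (Helios) was at 206 to 464 CPM against 80.8, 119 and 151 CPM (1.45, SE 0.32, adjusted p = 0.0585). Il2ra, the high-affinity IL-2 receptor chain, was at 478 to 752 CPM against 241, 301 and 319 CPM (1.12, SE 0.25, adjusted p = 0.0602). Itgae (CD103), an integrin that binds epithelial cadherin, was at 1549, 2015, 2044, 1978 and 1631 CPM against 83.3, 631 and 513 CPM (2.17, SE 0.53, adjusted p = 0.083). Itgb8, which activates latent TGF-beta, was at 9.53 to 21.4 CPM against 3.29 to 5.82 CPM (1.56, adjusted p = 0.0701). Ctla4, the inhibitory receptor, was at 1442, 872, 891, 952 and 863 CPM against 298, 728 and 594 CPM (0.89, SE 0.33, adjusted p = 0.275). Without G1 and N3, 18 of the 34 rose and 3 fell, and Ikzf2, Il2ra, Itgae and Itgb8 were among the 18 with adjusted p of 0.00145, 0.000288, 4.81e-05 and 0.0105. Ctla4 was not, with an adjusted p of 0.0821. Foxp3 is itself one of the 18. With only the second G1 library and N3 left out, 9 of the 34 rose and 1 fell. Ikzf2, Il2ra and Itgb8 passed there (adjusted p = 0.0241, 0.0496 and 0.0371). Itgae and Foxp3 did not (adjusted p = 0.0775 and 0.0746).

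Receptors that place T cells in tissues followed. Of 23 chemokine and homing receptors 2 rose, of which Gpr15 is described here, and none fell. Gpr15, which directs T cells and regulatory T cells to the colon, stood at 89.7, 65.4, 60.0, 49.3 and 21.7 CPM against 1.82, 6.25 and 6.26 CPM (3.50, SE 0.52, adjusted p = 0.00926). Fut7, singled out after its values were seen, makes the selectin ligands by which activated T cells roll, and was at 39.2 to 132 CPM against 20.2 to 33.0 CPM (1.99, SE 0.40, adjusted p = 0.0372). Ccr4, a skin-homing receptor, did not pass (95% interval 0.50 to 2.51, adjusted p = 0.168). It was at 106 to 150.4 CPM in 4 FOXP3 codes but at 31.0 CPM in N3, inside the LNGFR range of 27.6 to 46.6 CPM. Without G1 and N3, Ccr4 rose by 1.54 (adjusted p = 0.000181), and 7 of the 23 receptors rose and 1 fell. With only the second G1 library and N3 left out, Ccr4 rose by 1.66 (adjusted p = 0.0101). In that fit 3 of the 23 rose and none fell.

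Naive and memory markers went in both directions. Of 13 tested, 1 rose and 3 fell, the latter being Ly6c1, Igfbp4 and Tcf7. Ly6c1, a surface protein of memory and effector cells, was at 22.5, 9.41, 25.3, 26.0 and 24.7 CPM against 414, 208 and 150.2 CPM (-3.58, SE 0.40, adjusted p = 0.00206). Its neighbour Ly6c2, near-identical in sequence and chosen after its values were seen, was at 12.5 to 21.6 CPM against 486, 86.2 and 156 CPM (95% interval -5.05 to -2.95, adjusted p = 0.00352), and reads may be split between the pair. Bcl2, the survival factor maintained by common gamma chain cytokines, was at 273, 189, 142, 149 and 270.0 CPM against 506, 743 and 477 CPM (-1.49, SE 0.30, adjusted p = 0.0373). With Bik, it made up the 2 of 14 tested BCL2 family genes that fell, and none rose.

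The cell cycle was the gene group with the highest median. All 25 tested mitosis genes had a fold change above 0, with a median of 1.76, and 2 passed the test, Bub1 and Aurkb. Of 27 genes of the G1/S transition and DNA replication, 26 were above 0 with a median of 1.05, and none passed. The level of the mitosis list, as the mean of log2(CPM + 0.5) over its genes, was 6.12, 5.96, 6.41 and 6.69 in F1, F2, F5 and N2. It was 4.06 in N3, below the LNGFR codes at 4.21, 4.13 and 4.21. The G1/S list likewise was at 7.01 to 7.42 in 4 FOXP3 codes, 5.92 in N3 and 5.44 to 6.18 in the LNGFR codes. The difference thus came from 4 of the 5 FOXP3 codes, and N3, which also had the most B cell RNA and the least T cell RNA, was at the level of the controls.

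Bub1, a kinase of the spindle checkpoint, was at 19.6 CPM or more in 4 FOXP3 codes and 8.97 CPM in N3, against 3.27, 4.28 and 7.48 CPM (2.43, SE 0.52, adjusted p = 0.0482). Aurkb, the kinase of the chromosomal passenger complex, was at 98.5, 65.5, 108, 117 and 23.3 CPM against 13.8, 16.6 and 21.4 CPM (2.24, SE 0.48, adjusted p = 0.049). In both, N3 lay only just above the highest LNGFR code. Ccna2 (cyclin A2) was at 173 to 277 CPM in 4 FOXP3 codes and 32.8 CPM in N3, against 16.7, 32.4 and 34.8 CPM (2.72, SE 0.60, adjusted p = 0.0556). Rrm2, the regulated subunit of ribonucleotide reductase, was at 363 to 526 CPM in 4 codes and 69.5 CPM in N3, against 41.8, 70.3 and 94.2 CPM (2.45, adjusted p = 0.0708). Without the second G1 library and N3, 19 of the 25 mitosis genes rose, and without G1 and N3 all 25 rose with a median of 2.18, as did 21 of the 27 G1/S genes. Without G1 alone none of the 25 passed. Those shares compare with 1.69% and 6.24% of all genes called higher in the same fits.

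Outside the fixed list, 7 genes called higher act in division or in linked repair and checks: Ckap2l, Cep55, Hmmr, Fbxo5, Gtse1, Knl1 and Exo1. They were picked after their values were seen, and the share of such genes among all tested or lower genes was not counted. They are therefore no separate support for the result of the lists. Cep55, which acts in the final cut between daughter cells, was at 34.5, 30.6, 42.1, 36.5 and 11.4 CPM against 2.91, 6.42 and 8.71 CPM (2.31, SE 0.46, adjusted p = 0.0362). Ckap2l, a spindle protein, was at 60.6, 43.7, 48.1, 72.3 and 8.97 CPM against 8.73, 6.42 and 6.38 CPM (2.72, SE 0.57, adjusted p = 0.0465). The other 5 had fold changes of 1.62 to 2.19. In all 7, N3 was the lowest FOXP3 code.

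**Figure D4:**
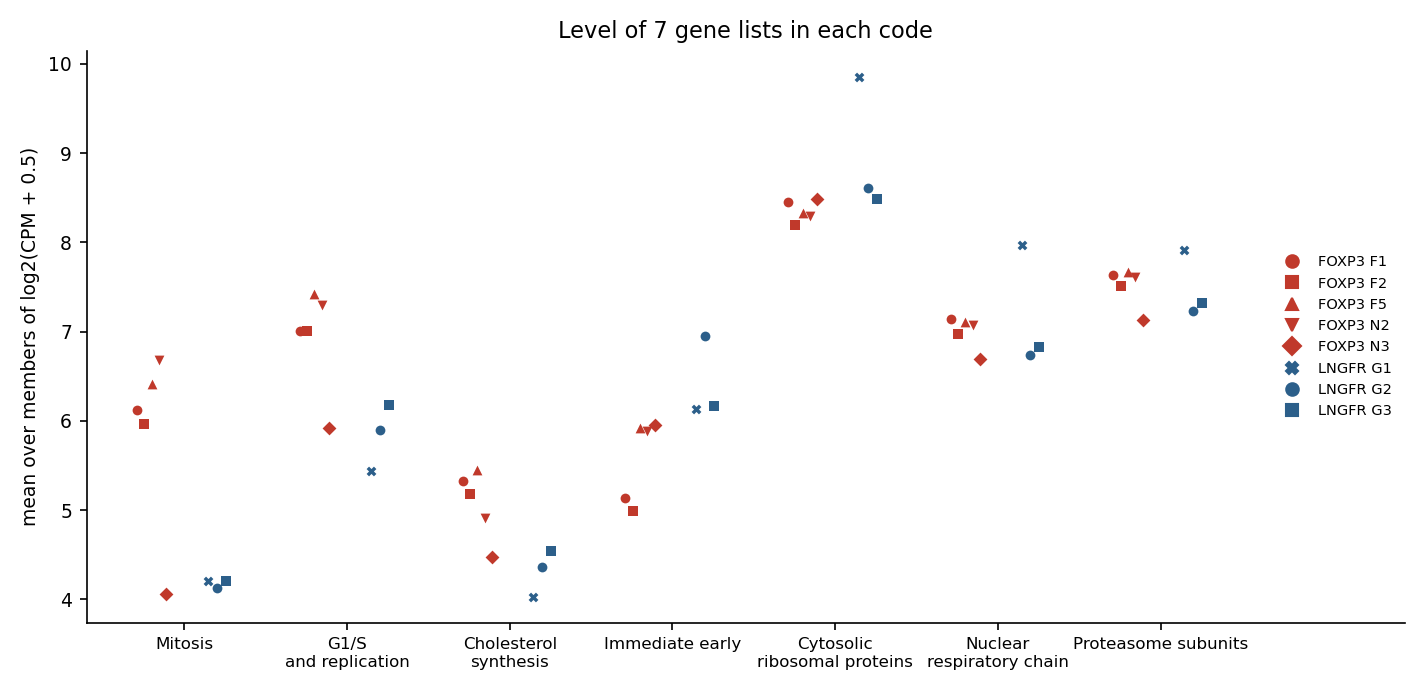
Mean of log2(CPM + 0.5) over the genes of 7 lists, 1 point per code, with FOXP3 codes in red and LNGFR codes in blue. F1, F2, F5 and N2 lie between 5.96 and 6.69 for mitosis while N3 (4.06) lies with the LNGFR codes, and G1 lies apart from all other codes for cytosolic ribosomal proteins (9.86).

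Because all mitosis genes lay above 0, the stretch of 250 bases before their starts in RefSeq (GRCm38.p6) was searched on both strands for 2 short motifs of cell cycle promoters, the CCAAT box (CCAAT) and the cell cycle homology region (TTTGAA). Of the 25 genes 21 had an entry, and 18 of these (85.7%) held CCAAT, against 40.7% of 9910 tested genes with an entry. The G1/S list held it in 15 of 22 genes (68.2%). The cell cycle homology region was in 7 of the 21 mitosis genes (33.3%) and in 13.5% of all. A forkhead motif (TGTTTAC) was in 1 of 29 genes called higher and 4 of 96 called lower, against 2.67% of all. Such matches describe letters in a window and not bound sites. Windows of 3 cell division genes show how the matches are placed, with each match in capitals and each window read 5′ to 3′ on the gene's strand. Bub1 lies at chr2:127831860-127832109 (minus strand), Cdc20 at chr4:118437344-118437593 (minus strand) and Ckap2l at chr2:129297213-129297462 (minus strand).
Bub1: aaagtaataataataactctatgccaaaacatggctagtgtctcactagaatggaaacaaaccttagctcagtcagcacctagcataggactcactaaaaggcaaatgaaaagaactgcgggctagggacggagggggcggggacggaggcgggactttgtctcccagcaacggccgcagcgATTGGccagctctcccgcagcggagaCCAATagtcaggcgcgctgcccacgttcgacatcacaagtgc
Cdc20: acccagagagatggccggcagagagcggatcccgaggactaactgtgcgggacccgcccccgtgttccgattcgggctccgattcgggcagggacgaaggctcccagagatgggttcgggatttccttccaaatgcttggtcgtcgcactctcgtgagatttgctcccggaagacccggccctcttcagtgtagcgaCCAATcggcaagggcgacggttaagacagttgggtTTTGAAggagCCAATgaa
Ckap2l: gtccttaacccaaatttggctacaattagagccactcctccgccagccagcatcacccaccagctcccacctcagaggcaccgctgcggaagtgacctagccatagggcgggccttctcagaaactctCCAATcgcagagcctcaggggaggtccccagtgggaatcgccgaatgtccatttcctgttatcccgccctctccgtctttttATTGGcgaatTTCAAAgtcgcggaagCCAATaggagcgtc
The first window holds 2 CCAAT matches, the second 2 of them and a homology region, and the third 3 of them and a homology region, all within the part nearest the start except 1 in Ckap2l. Cdc20, which activates the anaphase-promoting complex, was chosen for its window and had a fold change of 1.76 (SE 0.43, adjusted p = 0.0777), at 91.5 to 132 CPM in 4 FOXP3 codes and 29.4 CPM in N3, against 25.5, 25.8 and 31.3 CPM.

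Metabolic and growth lists gave smaller shifts. All 19 cholesterol synthesis genes had a fold change above 0, with a median of 0.70, and none passed the test over the 8 codes. Their mean level was 4.91 to 5.45 in 4 FOXP3 codes and 4.47 in N3, against 4.03, 4.37 and 4.54 in the LNGFR codes. Cyp51, a sterol demethylase, was at 98.1, 71.5, 95.4, 58.6 and 35.3 CPM against 8.37, 33.9 and 38.3 CPM (95% interval 0.35 to 2.44, adjusted p = 0.228). Mvd, of the mevalonate branch, was at 33.4 to 48.1 CPM against 23.5 to 29.5 CPM without overlap (0.64, adjusted p = 0.236), and Insig1, the sterol sensor that restrains the pathway, was at 36.5 to 57.3 CPM against 18.2 to 29.5 CPM (0.85, adjusted p = 0.161). Without G1 and N3, 8 of the 19 rose, whereas none passed without the second G1 library and N3. Of 20 glycolysis genes 17 were above 0 with a median of 0.36 and none passed, Pkm among them (0.73, SE 0.38, adjusted p = 0.454).

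For the large house-keeping families the answer turned on G1. Over all codes 85 of 86 cytosolic ribosomal protein genes were below 0, with a median of -0.81, and none passed. Their mean log2 level was 8.19 to 8.48 in the FOXP3 codes, 8.61 and 8.48 in G2 and G3, and 9.86 in G1. Rps27 shows the pattern, at 938, 752, 714, 659 and 1280.4 CPM against 3821, 1376 and 1075 CPM. Without G1 the list median was -0.19, and without G1 and N3 it was -0.24 with 7 genes lower, Rps24 and Rps27 among them, and 1 higher. The nuclear genes of the respiratory chain had a median of -0.36 over all codes and of 0.25 without G1. Mitochondrial ribosomal proteins went from -0.34 to 0.13, and proteasome subunits from -0.14 to 0.27. With only the second G1 library and N3 left out, all of these medians lay further below 0 than over the 8 codes. They were -1.13 for cytosolic ribosomal proteins, -0.55 for the respiratory chain, -0.46 for mitochondrial ribosomal proteins and -0.29 for proteasome subunits. The direction of these last 3 lists is therefore not settled by the 8 codes. Without G1 and N3, 19 of 78 respiratory chain genes rose, Sdhd of complex II among them (0.60, adjusted p = 0.0168). So did 11 of 37 proteasome genes, and no member of either list fell. With only the second G1 library and N3 left out, no member of either list passed, and no cytosolic ribosomal protein gene did.

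**Figure D5:**
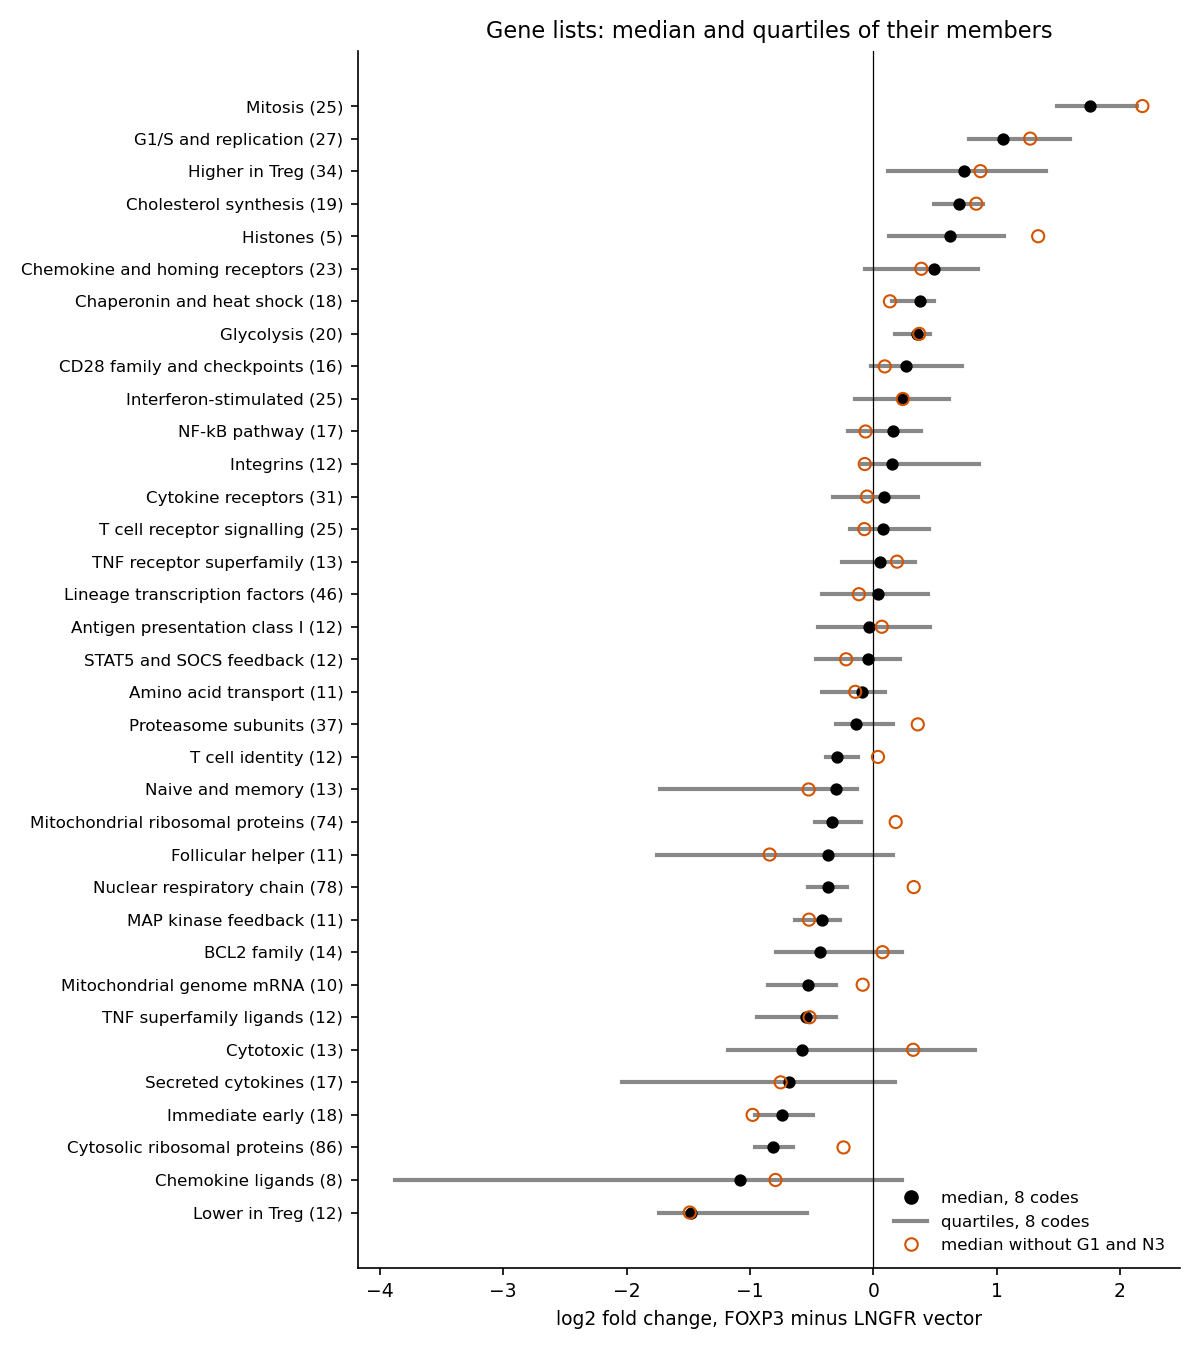
Median (black points) and quartiles (grey bars) of the log2 fold change for the lists other than those of other cells, with the number of tested genes in brackets and, as orange circles, the median without codes G1 and N3. Mitosis lies highest (1.76) and the genes lower in regulatory T cells lowest (-1.48), and, among others, 0 lies between the 2 medians for proteasome subunits, mitochondrial ribosomal proteins and the respiratory chain.

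Signalling genes downstream of the T cell receptor changed at single points. Dusp4, a nuclear phosphatase of MAP kinases, rose, at 26.1, 32.7, 49.0, 71.1 and 23.8 CPM against 7.08 CPM in G2, 3.44 CPM in G3 and a level just above G2 in G1 (2.75, SE 0.46, adjusted p = 0.0176). Its relative Dusp2 fell, at 48.7 to 65.0 CPM against 127, 158 and 352 CPM (-1.93, SE 0.31, adjusted p = 0.0156), so 2 phosphatases of 1 pathway moved in opposite directions. Of 18 immediate early genes, which respond within minutes to stimulation, 16 were below 0 with a median of -0.74, and 1 passed. That gene, Ier3, was at 14.6, 7.32, 10.3, 6.72 and 6.95 CPM against 161, 40.5 and 81.0 CPM (-3.35, SE 0.42, adjusted p = 0.00463). Fosl2 was lower without overlap, at 8.08 to 31.4 CPM against 37.8 to 86.1 CPM (-1.60, SE 0.44, adjusted p = 0.118). Rgs1, which dampens chemokine receptor signals and marks resident cells, was the most abundant of the named lower genes, at 634, 442, 630.3, 827 and 900.3 CPM against 2026, 1991 and 1313 CPM (-1.37, SE 0.29, adjusted p = 0.0469).

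No gene passed in the T cell receptor signalling list (25 tested), the NF-kB list (17), the cytokine receptors (31), the CD28 family and checkpoints (16), the integrins (12) or the interferon-stimulated genes (25), with list medians between 0.08 and 0.27. Without G1 the medians of the receptor signalling, NF-kB, cytokine receptor and integrin lists were below 0. Their members still include sizeable differences that the 8 codes do not resolve. Icos, a costimulatory receptor, was at 1257 to 2232 CPM against 807 to 940.5 CPM (0.94, SE 0.26, adjusted p = 0.121), and Pdcd1 (PD-1) was at 32.5 to 85.2 CPM against 88.4, 102 and 195 CPM (-1.13, SE 0.37, adjusted p = 0.211). Both were without overlap. Ubash3b, a phosphatase that restrains receptor signals, was at 80.6 to 111 CPM against 28.4, 43.6 and 62.7 CPM (1.12, adjusted p = 0.0943). Gbp3, an interferon-induced GTPase, was at 146 to 222 CPM against 14.2, 87.9 and 76.4 CPM (1.73, adjusted p = 0.123). Without G1 and N3, Icos, Ubash3b and Gbp3 rose and Pdcd1 did not pass (adjusted p = 0.0732). Tgfbr3, a co-receptor for TGF-beta that fell in that fit (-1.62, adjusted p = 0.00266), was at 11.2 to 33.7 CPM against 34.9, 58.9 and 37.5 CPM over all codes (-1.19, adjusted p = 0.149). With only the second G1 library and N3 left out, Icos, Ubash3b and Gbp3 did not pass (adjusted p = 0.203, 0.0659 and 0.0931). Tgfbr3 fell there (-1.52, adjusted p = 0.025). The NF-kB genes did not pass in any of these fits. Nfkbia, the inhibitor that NF-kB itself induces, ranged from 670.2 to 1541 CPM against 5171, 2314 and 1148 CPM. Nfkb2 and Tnip1 differed by 0.52 and 0.41.

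Several of the genes called higher with the smallest p-values were in none of the lists. Matn2, the first of them, encodes matrilin 2, an adaptor protein of extracellular matrix filaments (GRCm38 chr15:34306677-34436273). It was at 51.6, 66.7, 53.8, 57.7 and 68.3 CPM against 6.18, 10.4 and 8.47 CPM (2.81, SE 0.26, adjusted p = 0.0011), with N3 as high as the rest. Lamc1, the laminin gamma 1 chain of basement membranes, was at 34.6 to 46.6 CPM against 13.8, 15.8 and 15.7 CPM (1.44, SE 0.21, adjusted p = 0.00926). Further matrix genes, picked after their values were seen, went both ways: Nid2 (2.43) rose, while Lama5 (-1.74) and Tnc (-3.50) fell. Scpep1, a serine carboxypeptidase, was at 89.1 to 117 CPM against 18.9, 32.9 and 32.4 CPM (1.88, SE 0.26, adjusted p = 0.0072). Slc4a8, a sodium-driven bicarbonate exchanger, was at 43.5 to 60.8 CPM against 17.5 to 21.1 CPM (1.46, SE 0.22, adjusted p = 0.00931).

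Other genes of this set were Sh3bp4 (2.43), Crybg3 (1.54), N4bp3 (1.55) and B4galnt4 (1.16), each with adjusted p between 0.0072 and 0.0371. Nhsl2 had the largest named increase, at 38.3, 57.0, 60.3, 81.3 and 9.75 CPM against 2.91, 0.987 and 2.58 CPM (4.56, SE 0.70, adjusted p = 0.0107), and N3 again was the lowest FOXP3 code. Hbs1l, a factor of stalled ribosome rescue, was at 111 to 220.1 CPM against 21.5, 56.8 and 49.0 CPM (2.08, SE 0.37, adjusted p = 0.0236). Ttn, the giant muscle protein titin, also detected in lymphocytes, was at 119, 260.0, 147, 102 and 121 CPM against 52.0, 32.4 and 26.9 CPM (2.02, SE 0.38, adjusted p = 0.0274). Ighm, the constant region of IgM, was called higher as well (1.95, adjusted p = 0.0276), at 1520.4, 1488, 1924, 1013 and 3006 CPM against 511, 490.2 and 389.9 CPM. It was named after its values were seen. Among the FOXP3 codes Ighm was highest in N3 and lowest in N2, where the 12 B cell markers summed to 6281 and 167 CPM. In the LNGFR codes these markers summed to 639 to 1841 CPM. The part of B cell RNA in the Ighm difference was not tested.

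Further sets among the lower genes were picked after their values were seen. In receptor and cyclic AMP signalling, Ramp1, the partner chain of the receptor for the neuropeptide CGRP, was at 3.25 to 12.3 CPM against 315, 74.0 and 89.5 CPM (-4.65, SE 0.55, adjusted p = 0.00327). Its relative Ramp3 (-1.60) and the adenylate cyclase Adcy4 (-2.37) were lower as well. In lipid storage, the droplet protein Plin2 (-1.50), the lipase inhibitor Hilpda (-1.47) and the monoacylglycerol lipase Mgll (-4.30) fell. Hilpda was at 34.6 to 52.7 CPM against 189, 86.7 and 89.1 CPM. Vdr, the vitamin D receptor, was at 3.48 to 5.99 CPM against 6.18, 33.7 and 34.5 CPM (-2.44, SE 0.45, adjusted p = 0.0263), so G1 lay next to the FOXP3 codes. Rbpj, the transcription factor of Notch signalling, was at 18.6 to 35.8 CPM against 68.0, 103 and 133 CPM (-1.85, SE 0.28, adjusted p = 0.00931).

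Further genes with the smallest p-values in the lower direction were Tspan9, Prxl2a, Aqp9, Bace2 and Rab4a. Tspan9, a tetraspanin, was at 1.49 to 2.80 CPM against 25.5, 49.4 and 31.4 CPM (-4.26, SE 0.31, adjusted p = 0.000199). Prxl2a, a peroxiredoxin-like protein, was the most abundant of these, at 13.2 to 24.1 CPM in 4 FOXP3 codes and somewhat higher in N3, against 397, 236 and 338 CPM (-3.90, SE 0.33, adjusted p = 0.000577). Bace2, an aspartyl protease, was at 5.28 to 8.46 CPM against 41.5, 31.9 and 50.7 CPM (-2.51, SE 0.24, adjusted p = 0.0012). Rab4a, a GTPase of recycling endosomes, was at 8.86 to 16.2 CPM against 60.6 to 100.4 CPM (-2.62, SE 0.26, adjusted p = 0.00139). The groups lay far apart in these 4 genes. They were chosen by small p among genes without overlap, so this separation is no separate support.

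Among transporters, the water and glycerol channel Aqp9 was at 0.480 to 1.52 CPM against 10.2, 32.9 and 40.1 CPM (-4.84, SE 0.47, adjusted p = 0.0012). Slc7a8, a neutral amino acid transporter, was at 0 to 0.336 CPM, 4 reads in all, against 6.55, 11.8 and 20.2 CPM (-6.99, SE 0.75, adjusted p = 0.00195), and was the one of 11 tested amino acid transport genes that passed. Ltb4r1, the high-affinity receptor for leukotriene B4 that draws effector cells to inflamed tissue, was at 185, 93.9, 83.4, 163 and 52.3 CPM against 753, 317 and 477 CPM (-2.16, SE 0.42, adjusted p = 0.0319). Adcy6, an adenylate cyclase that makes cyclic AMP, was at 1.60 to 3.43 CPM against 14.9, 21.6 and 18.7 CPM (-2.82, SE 0.32, adjusted p = 0.00254).

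Smaller decreases were found in Tspan13, Nav2, Shld1 and Rdh14. Tspan13 was at 86.2 to 136 CPM against 282, 219 and 302 CPM (-1.35, SE 0.24, adjusted p = 0.0243). Nav2 was at 66.4 to 90.2 CPM against 199.7, 142 and 194 CPM (-1.14, SE 0.22, adjusted p = 0.0328). Shld1, a subunit of the shieldin complex that protects DNA ends, was at 14.8 to 20.9 CPM against 56.8, 37.8 and 34.7 CPM (-1.29, SE 0.23, adjusted p = 0.0241). Rdh14, a retinol dehydrogenase, was at 7.17 to 10.8 CPM against 24.7, 17.9 and 34.5 CPM (-1.47, SE 0.27, adjusted p = 0.0241). In these 4 genes each FOXP3 code was below each LNGFR code, which the rule for naming them required.

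None of the 75 called genes whose values were followed through every setting changed direction where it was tested. For whole codes left out this was all but fixed, since the groups of each called gene did not overlap. Of the 75, 49 lost the call without at least 1 of the 8 codes. The 18 that kept it under each setting in which they were tested were Il5, Il13, Ccl24, Cxcl2, Cxcl3, Tspan9, Prxl2a, Aqp9, Bace2, Rab4a, Slc7a8, Ly6c1, Ly6c2, Ier3 and Ramp1 among the lower genes and Tnfrsf9, Gpr15 and Matn2 among the higher ones. Of these, Aqp9, Ccl24, Il13, Cxcl3 and Slc7a8 did not enter the test with a minimum of 10 CPM, nor Slc7a8 that of the first library of each code.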

How the data were processed

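The deposited table holds whole-number read counts per gene. The authors aligned paired reads of 38 bp with STAR 2.7.3a to mm10/GRCm38 and counted them with featureCounts of Subread 2.0.0, per the submitters' processing notes. The annotation, strand setting and treatment of multimapping reads were not given in the sources used here. Per the labels' protocols the cDNA had 18 PCR cycles and no molecular identifiers, so PCR copies count as reads.

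Both libraries of a code were summed. Of 55011 genes in the table, 14283 passed edgeR's filterByExpr and were tested with edgeR 4.0.16 (R 4.3.3), with TMM scaling and a robust quasi-likelihood fit of the 8 codes alone. The remaining group of the series entered an alternative fit. Intervals cover 95%, calls had a Benjamini-Hochberg adjusted p under 0.05, and the test was tried on simulated data. Coordinates came from GENCODE M21, which matched 13996 tested genes.

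Named genes were called, did not overlap between the groups, reached a group mean of 10 CPM and were neither gene models nor antigen receptor segments. Per direction these were the 12 with the smallest p, up to 6 under a log2 change of 1.5 and the 5 most abundant, plus up to 3 members of a list by p, called or not. All others named, including further called members of a list, were chosen after their values were seen. The comparison and the 45 gene lists were chosen with earlier results of these data known. Alternatives changed the codes or libraries kept, the scaling, the filter and the tool (DESeq2 1.42.0, limma 3.58.1 with voom weights). Some results that the naming rule gives are not reported here.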

Additional observations from a re-analysis of the deposited data

Results flagged for a closer look

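Of 155 values tested over the 5 FOXP3 codes, 17 had 1 code far from the other 4, where chance flags about 1 in 20. In 10 of the 17 that code was N3. Its cell cycle levels were low, with a mean log2 CPM of 4.06 for mitosis against 5.96 to 6.69 and of 5.92 for G1/S and replication against 7.01 to 7.42. The T cell identity genes (8.52 against 9.10 to 9.26) and the proteasome subunits (7.13 against 7.51 to 7.66) were low in N3 as well. Its summed levels were high for B cell genes (6281 against 167 to 699 CPM) and class II presentation (20811 against 1234 to 2464 CPM). The sum of stromal and endothelial genes was high too (159 against 92.3 to 108 CPM). Most of that sum was Pecam1, at 154 CPM in N3. Col1a1 of the same list was lower in N3, at 2.79 CPM against 9.45 to 10.9 CPM. Among single genes, N3 was apart in Tspan9 (2.80 CPM), Fut7 (39.2 CPM) and Nfkb2 (218 CPM). The part of the B cell RNA in the low cell cycle levels of N3 was not tested.

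F2 was apart in Ttn (260.0 CPM), Ly6c1 (9.41 CPM) and Ctsw (57.2 CPM). N2 was apart in Id2 (223 CPM against 242 to 248 CPM) and in the sum of CD8, gamma-delta and NK genes (14.0 against 8.69 to 9.75 CPM). F1 was highest in Ctla4 at 1442 CPM, and F5 in Insig1 at 57.3 CPM. In none of the 9 single genes flagged did the code that stood apart lie within the range of the LNGFR codes. For the called genes among them this was fixed, since the groups of each called gene did not overlap. The groups of Ctla4 and Insig1 did not overlap either.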

How the results depend on the processing

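Against 49 higher and 135 lower genes over the 8 codes, the fit with all 3 groups gave 26 and 58. Leaving out the second G1 library and N3 gave 230 higher genes, and leaving out codes G1 and N3 gave 889 and 559. The first library of each code gave 31 and 79 and the second 8 and 53, and F1, F2 and F5 as the only FOXP3 codes gave 105 higher. Upper-quartile scaling, which moved the median of all genes to -0.19, gave 30 higher genes, or 17.6% of its calls against 26.6%. Testing without a filter gave 327 and 325, a minimum of 10 CPM 24 and 77, DESeq2 262 and 272 and limma with voom weights 519 and 497. Without 1 code at a time the counts ran from 9 to 238 higher and 44 to 219 lower. Narrow intervals numbered 5015 for a 2-fold limit, 3456 without G1 and N3 and 354 without the second G1 library and N3, the last 2 being alternatives chosen after seeing the data.

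Of 75 called genes followed, 49 lost the call without at least 1 code and 54 under at least 1 other setting. None changed sign where it was tested, which was all but fixed for whole codes left out, since their groups did not overlap. Of 45 list medians, 24 changed sign under some setting. Differences near 0 did so as well. Prdm1 was at -0.035 without the second G1 library, -0.00093 without it and N3, -0.10 in the first libraries, -0.13 under upper-quartile scaling and -0.058 at 10 CPM, and -0.018 to 0.13 without 1 code. Nfatc1 was at 0.12 in the second libraries and 0.12 without a filter, and -0.080 to 0.041 without 1 code. Gata3 was at -0.052 without the second G1 library, -0.13 without G1 and N3, -0.049 in the first libraries, -0.11 under upper-quartile scaling, -0.064 at 10 CPM and -0.11 with voom weights, and -0.24 to 0.36 without 1 code. The cause of these differences was not tested. No paired analysis was possible because the codes do not pair across groups. The low depth of G1, with 3109515 counts, limits its lowly expressed genes most.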
